A study of Rattus norvegicus with 5 samples.

Results

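The subject is the liver expression of a group of interferon-induced antiviral effector genes of the Ifit, Mx and Oas families in 2 rat strains. The group was set as a list of 10 genes, Ifit1, Ifit2, Ifit3, Mx1, Mx2, Oasl2, Oasl, Oas1a, Oas1b and Oas2, and its members were found by symbol in GEO's platform annotation. Of these, 9 had a probe set, out of 7589 genes named in all, and Ifit2 was not analysed here. Each of the 9 had a single probe set that carried its symbol alone, and none of the 409 probe sets with several symbols named a member. Probe sequences were not used here, so whether a probe set also binds the transcripts of a close paralogue was not tested.

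RNA came from livers of 4-month-old males on standard chow, 8 rats per strain. PD is the progenitor strain, the polydactylous rat, and PD.SHR4 (PD.SHR4a in the series text) is a congenic strain with chromosome 4 material of SHR, the spontaneously hypertensive rat, on the PD background. Labelled cDNA was pooled for each strain, and there were 3 PD arrays and 2 PD.SHR4 arrays of the Affymetrix Rat Exon 1.0 ST type. No label ties an array to separate rats, so every p-value below measures the spread between arrays, which may be technical, and not that between rats. The values are log2 expression levels as deposited, so a difference of 1 is a doubling, and they carry no detection calls. Array medians lay between 5.21 and 5.38 and lower quartiles between 2.84 and 2.93, and the tissue label was borne out by hepatocyte markers, whose mean level was 12.2 to 12.3 on every array.

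Interferons are secreted by cells that sense viral nucleic acid. Through their receptors they activate transcription factors, Irf9 among them, which bind a DNA element called the interferon-stimulated response element (ISRE) in the promoters of their target genes. The effectors described here are among the most strongly induced targets. Ifit proteins bind foreign RNA and block its translation, and Mx proteins are large dynamin-like GTPases that trap viral components. Those Oas proteins that are active enzymes sense double-stranded RNA and make short adenylate chains that switch on the ribonuclease RNase L. Whether each Oas member here is active in this way was not examined. Hepatocytes and the immune cells of the liver can all express them, and in pooled tissue RNA fewer cells of a type cannot be told apart from less RNA per cell.

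The promoters are shown first, because the Oas1 copies measured here differ in this element. RefSeq promoter sequences of assembly GRCr8, 250 bases before to 50 bases after each start site, held an entry for 6 of the 10 genes, Ifit3, Mx1, Oasl2, Oasl, Oas1a and Oas1b, and none for Ifit1, Ifit2, Mx2 and Oas2. The ISRE core was searched on both strands as GAAANNGAAA, and 4 of the 6 held it, namely Ifit3, Oasl2, Oas1a and Oas1b. Over all genes with an entry the share was 4.12% (1131 of 27457), and among other interferon-induced genes that were measured it was 63.6% (14 of 22). No match was found in these windows of Mx1 and Oasl, which says only that the letters are not there. The windows below give the part upstream of the start site around each match, read 5′ to 3′ on the gene's strand, with the ISRE core in capitals.

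Ifit3, chr1:241527252-241527321, + strand: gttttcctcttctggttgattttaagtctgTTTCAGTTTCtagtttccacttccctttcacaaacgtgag

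Oasl2, chr12:47383297-47383366, - strand: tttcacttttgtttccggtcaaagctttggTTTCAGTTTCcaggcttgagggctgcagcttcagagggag

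Oas1a, chr12:41330395-41330465, + strand: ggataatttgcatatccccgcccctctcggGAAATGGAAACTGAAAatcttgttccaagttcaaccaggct

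Oas1b, chr12:41395866-41395941, - strand: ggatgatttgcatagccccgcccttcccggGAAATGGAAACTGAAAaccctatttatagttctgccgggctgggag

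The core began 44 bases before the start site in Ifit3 and 151 bases before it in Oasl2, in both cases on the opposite strand. In Oas1a and Oas1b it occurred as 2 overlapping copies, 41 and 35 bases before the start of Oas1a and 59 and 53 bases before that of Oas1b. The 250 upstream bases of Oas1a and Oas1b were 69.8% identical over their alignment. A second motif, TTCNNNGAA, was searched in the same entries and found in 2 of the 6 genes, Oas1a and Oas1b. The share was 9.39% over all genes with an entry and 36.4% (8 of 22) among the other measured interferon-induced genes.

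All 9 measured effectors were lower in PD.SHR4, and in each of them every PD.SHR4 array lay below every PD array. Over the 8797 probe sets, 17.1% showed that separation in that direction. In the limma fit over all probe sets, Ifit1, Mx1 and Oasl2 fell (adjusted p under 0.05), a count of 3 of 9, against 0.659% of all probe sets called lower. The other 6, Ifit3, Mx2, Oasl, Oas1a, Oas1b and Oas2, did not pass the threshold. All 9 had an unadjusted p under 0.05 with a lower value, which 7.92% of all probe sets had, and all 9 had a log2 difference of -1 or less, which 1.5% had. The median log2 difference of the 9 was -2.28, and that of all probe sets was 2e-04.

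**Figure D1:**
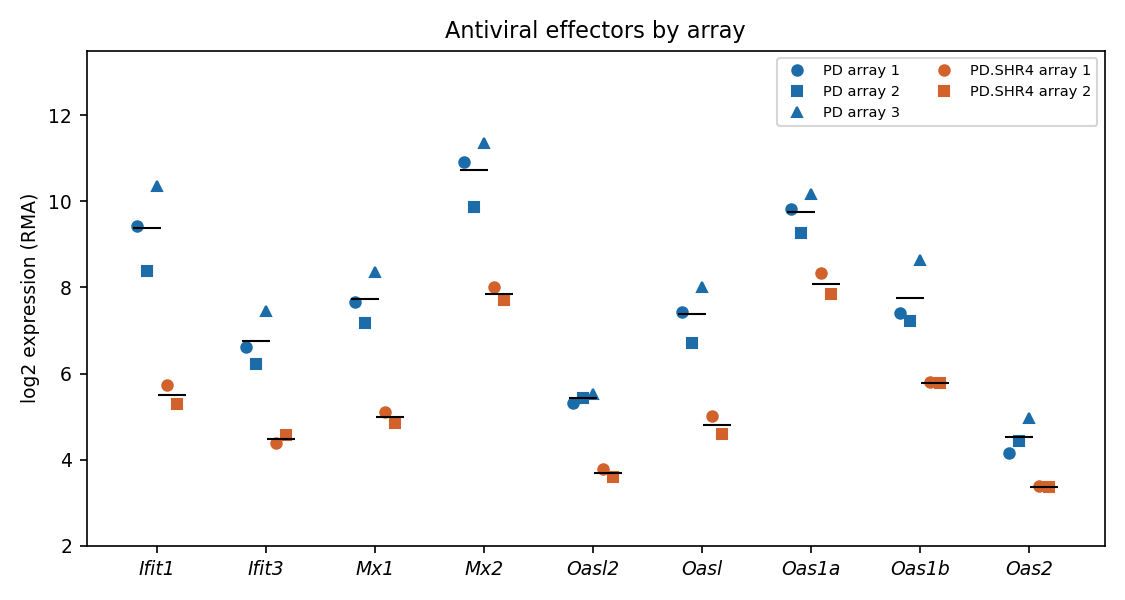
Log2 expression (RMA) of the 9 measured antiviral effectors on each of the 3 PD arrays (blue) and 2 PD.SHR4 arrays (orange), with short bars at the strain means. No gene has overlapping strains, from Ifit1 with 8.38 as the lowest PD value and 5.73 as the highest PD.SHR4 value to Oas2 with 4.15 and 3.39.

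Ifit1 binds viral RNA whose cap lacks the methyl marks of host messenger RNA. Its log2 levels were 9.43, 8.38 and 10.36 on PD arrays 1, 2 and 3 and 5.73 and 5.297 on the PD.SHR4 arrays. The lowest PD array was 2.65 above the highest PD.SHR4 array, a wider step than the 1.98 spanned by the PD arrays themselves. Ifit1 fell 14.7-fold, a log2 difference of -3.88 ± 0.55 (SE; 95% interval -5.23 to -2.52; limma adjusted p = 0.0489).

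Ifit3, a partner that stabilises Ifit1 on RNA in human cells, had levels of 6.62, 6.23 and 7.45 in PD and 4.39 and 4.57 in PD.SHR4. The strains were again separate, and here PD.SHR4 array 2 was the higher of the pair, unlike in the other 8 effectors. The log2 difference was -2.28 ± 0.35 (SE; limma adjusted p = 0.0598), a 4.87-fold lower level that did not pass the threshold. Ifit3 and Ifit1 are near neighbours on chromosome 1, in the gene order Ifit2, Ifit3, Ifit1bl, Ifit1.

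Mx1, the nuclear Mx protein of rodents that acts on influenza virus, measured 7.65, 7.18 and 8.37 in PD and 5.11 and 4.86 in PD.SHR4. It fell 6.73-fold, a log2 difference of -2.75 ± 0.34 (SE; limma adjusted p = 0.0392). Mx2, the cytoplasmic Mx protein, measured 10.92, 9.88 and 11.37 in PD and 8.01 and 7.71 in PD.SHR4. Its difference of -2.86 ± 0.43 (SE) was close to that of Mx1 in size, but the PD arrays of Mx2 spanned 1.49 against 1.19 in Mx1, and Mx2 did not pass (limma adjusted p = 0.0569). The difference between Mx1 and Mx2 was not tested. The pair lies on chromosome 11 with Fam3b as the only annotated protein-coding gene between them.

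The Oas-like genes carry ubiquitin-like repeats after the Oas domain. Oasl2 measured 5.31, 5.44 and 5.53 in PD and 3.78 and 3.59 in PD.SHR4, so its PD arrays spanned only 0.23. It fell 3.35-fold, a log2 difference of -1.74 ± 0.13 (SE; limma adjusted p = 0.0106). Its adjusted p was the smallest of the 9 and its fold the third smallest. Oasl, its neighbour on chromosome 12, measured 7.44, 6.71 and 8.01 in PD and 5.02 and 4.59 in PD.SHR4. The PD arrays spanned 1.30 there, and the difference of -2.58 ± 0.38 (SE) had a limma adjusted p of 0.0543.

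Oas1a and Oas1b belong to the small-form Oas1 genes, which rodents have in many copies, and Oas1b is known in mice for resistance to flaviviruses. Oas1a measured 9.83, 9.26 and 10.16 in PD and 8.33 and 7.85 in PD.SHR4. Oas1b measured 7.41, 7.23 and 8.65 in PD and 5.80 and 5.78 in PD.SHR4. The log2 differences were -1.66 ± 0.29 (SE; limma adjusted p = 0.0784) and -1.98 ± 0.43 (SE; limma adjusted p = 0.117). In Oas1b the highest PD array stood well above the other two, and the PD.SHR4 arrays differed by only 0.019.

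Oas2, a larger enzyme with a pair of Oas units, had the smallest difference of the 9. It measured 4.15, 4.44 and 4.97 in PD and 3.39 and 3.36 in PD.SHR4, so its PD.SHR4 values lay not far above the lower quartile of each array. Its log2 difference was -1.15 ± 0.25 (SE; 95% interval -1.75 to -0.54; limma adjusted p = 0.117). This interval and that of Ifit1 did not overlap, while the difference between these genes was not itself tested. Oas2 was also the one effector in which the step between the strains, 0.76, was narrower than the range of the PD arrays, 0.82. In the other 8 the step was the wider, which held for 5.57% of all probe sets.

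**Figure D2:**
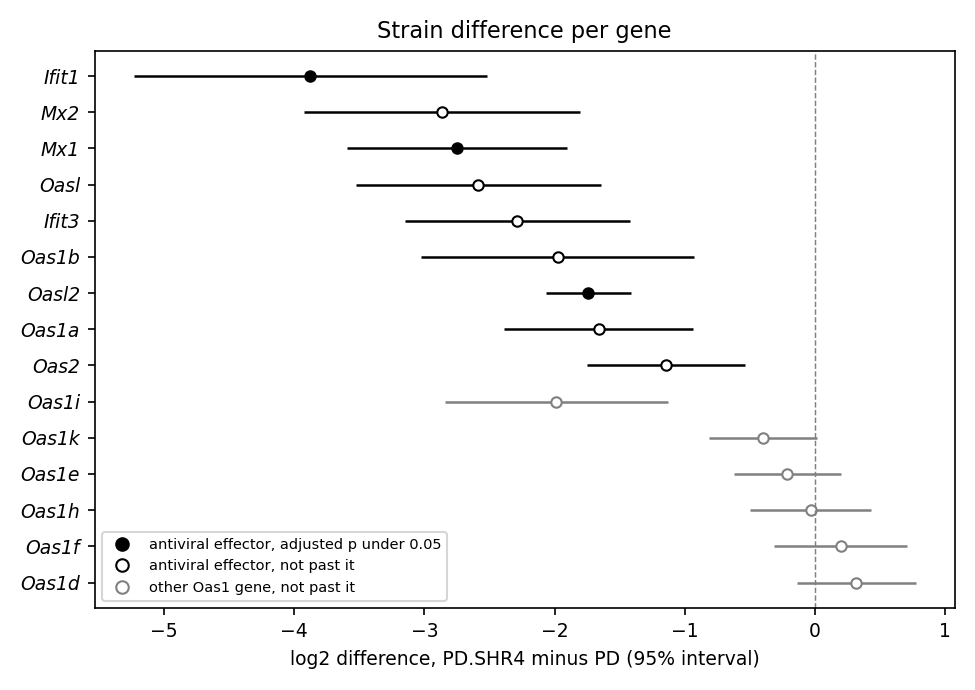
Log2 difference, PD.SHR4 minus PD, with the 95% interval of the limma fit, for the 9 antiviral effectors (black) and the 6 other measured Oas1 genes (grey). Filled points mark adjusted p under 0.05 (Ifit1, Mx1 and Oasl2). The effectors lie between -3.88 and -1.15 and Oas1i at -1.99 lies among them, whereas Oas1k, Oas1e, Oas1h, Oas1f and Oas1d lie between -0.40 and 0.32.

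The count of 3 depended on single arrays. Without PD array 1 only Oasl2 passed, and without PD array 3 only Mx1. Without PD array 2 the count was 5, with Mx2 and Oasl added to the same 3 genes. Over all 8797 probe sets, 28, 18 and 55 were called in these fits, in that order, against 82 with all arrays. All 9 effectors kept an unadjusted p under 0.05 in limma there, as had 924 to 1534 of all probe sets in either direction. Leaving out a PD.SHR4 array left a lone array of that strain. The median log2 difference of the 9 was then -2.20 without PD.SHR4 array 1 and -2.37 without PD.SHR4 array 2. In these fits a lone PD.SHR4 array was assumed to vary like the PD arrays. The median difference of the 9 was -2.55 to -1.94 over the 5 fits that left out an array, and since no gene's arrays overlapped between strains, leaving one out could not turn a direction.

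The PD arrays, which were made from pooled cDNA of one strain, differed among themselves more in these genes, Oasl2 apart, than in the median probe set. The SD over the PD arrays was 0.11 in Oasl2 and 0.42 to 0.99 in the other 8, with a median of 0.62 over the 9 against 0.18 over all probe sets. PD array 3 was the highest PD array in all 9, as in 26.3% of all probe sets. In 7 of the 9, the exceptions being Oasl2 and Oas2, PD array 3 was the highest and PD array 2 the lowest, an order that 13.8% of all probe sets had. Array 3 exceeded array 2 by 1.98 in Ifit1, 1.49 in Mx2, 1.42 in Oas1b and 1.30 in Oasl. In Oasl2 the same step was 0.094. The PD.SHR4 arrays differed by 0.019 to 0.47, with Oas1b at the low end and Oas1a at the high end, and their median SD was 0.18 over the 9 against 0.093 over all probe sets. These values describe arrays and not rats, and no array was left out of the fit above on account of them.

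**Figure D3:**
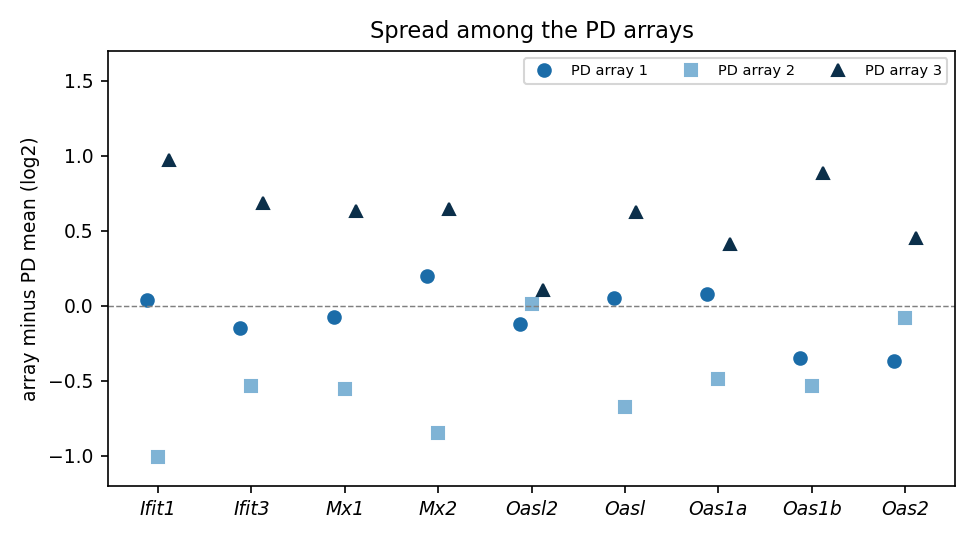
Each PD array minus the mean of the PD arrays (log2) for the 9 antiviral effectors. PD array 3 (triangles) is the highest throughout, from 0.11 above the mean in Oasl2 to 0.97 in Ifit1, and PD array 2 (squares) is the lowest in all but Oasl2 and Oas2.

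The Oas1 copies gave different values, though the differences between them were not tested. The locus on chromosome 12 runs, in gene order, Oas1i, Oas1d, Oas1a, Oas1h, Oas1f, Oas1b, Oas1e, Oas1k, Oas3, Oas2, and all but Oas3 had a probe set, so the neighbours of Oas1a and Oas1b were described whatever their values, a choice made after the values were seen. Oas1i measured 7.99, 7.43 and 8.66 in PD and 6.16 and 5.92 in PD.SHR4. Its log2 difference of -1.99 ± 0.35 (SE; limma adjusted p = 0.0784) was close to those of Oas1a and Oas1b and likewise did not pass. Oas1k, with PD values of 3.02 to 3.50 and PD.SHR4 values of 2.81 and 2.93, had non-overlapping arrays and a difference of -0.40 ± 0.17 (SE; limma adjusted p = 0.384). Its PD.SHR4 values lay near the lower quartiles of 2.84 to 2.93, so low signal limits this separation.

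The remaining 4 copies overlapped between strains and, like Oas1k, were at low levels on all arrays. Oas1f lay between 3.59 and 4.22 over the 5 arrays, Oas1h between 2.06 and 2.64, Oas1d between 2.13 and 2.87 and Oas1e between 1.60 and 2.16. Their log2 differences were 0.20, -0.031, 0.32 and -0.21 in that order, and that of Oas1h was 0.023 once each array was centred on its median. Oas1d, Oas1h and Oas1e were below the lower quartile of every array, so a change in a low transcript could be missed there. Along the locus, the copies with lower PD.SHR4 values were interspersed with copies whose arrays overlapped. How far the probe sets of Oas1a, Oas1b and Oas1i read one another's transcripts was not tested.

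**Figure D4:**
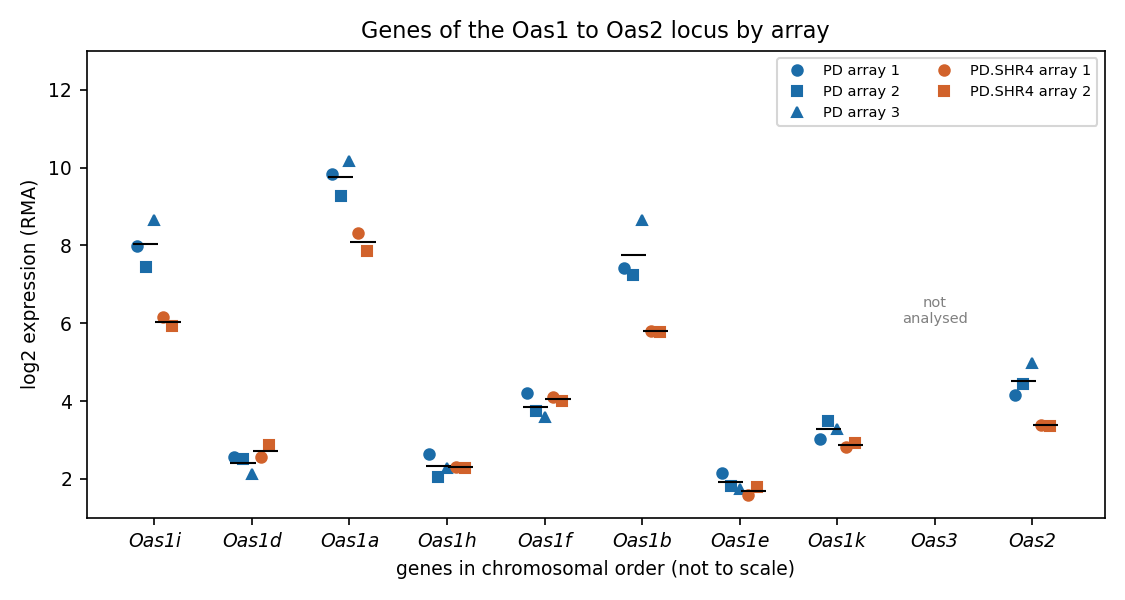
Log2 expression (RMA) by array for the genes of the Oas1 to Oas2 locus in chromosomal order, not to scale, with bars at the strain means. Oas1i, Oas1a, Oas1b and Oas2 have separate strains, Oas1k has narrowly separate ones at 2.81 to 3.50, and Oas1d, Oas1h, Oas1f and Oas1e overlap.

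The upstream sequences of these copies were then compared, also after their values were seen. Oas1i carried the ISRE core in 2 overlapping copies, at 36 and 30 bases before its start site, and its upstream 250 bases were 86.3% identical to those of Oas1a. The core was not found in the windows of Oas1d, Oas1h, Oas1f and Oas1e, and Oas1k had no entry. Among these, only Oas1e held TTCNNNGAA, 59 bases before its start site. Oas1d and Oas1h were 82.1% identical to each other over the upstream bases and 44.9% and 48.5% identical to Oas1a. A short run shared with Oas1a, ccccgccc, marks the matching stretch in Oas1d, Oas1h and Oas1f. The windows of Oas1h and Oas1f follow that of Oas1i, and the Oas1d window, not shown, had the same letters as that of Oas1h. The run was not found in Oas1e, whose upstream bases were 93.2% identical to those of Oas1h. Capitals again mark the ISRE core. The match is a description of letters, and binding was not measured. Among the effectors with an entry, Mx1 and Oasl, without a match, had log2 differences of -2.75 and -2.58. Those with the core had smaller ones, -2.28 in Ifit3, -1.98 in Oas1b, -1.74 in Oasl2 and -1.66 in Oas1a. Whether the core bears on the strain difference was not tested.

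Oas1i, chr12:41285160-41285225, + strand: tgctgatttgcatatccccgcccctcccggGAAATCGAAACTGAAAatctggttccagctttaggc

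Oas1h, chr12:41354010-41354079, - strand: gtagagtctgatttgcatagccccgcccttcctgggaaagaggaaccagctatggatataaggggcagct

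Oas1f, chr12:41366960-41367029, - strand: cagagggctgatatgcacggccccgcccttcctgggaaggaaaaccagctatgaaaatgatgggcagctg

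Other genes of the pathway were taken from lists and are given by their counts. Among other interferon-induced genes, 26 of 63 listed were measured, of which 6 fell, 0 rose and 20 did not pass, and 25 of the 26 had values below 0 (median log2 difference -0.97). In 23 of them the PD.SHR4 arrays lay below all PD arrays, and 21 had an unadjusted p under 0.05 with a lower value. Over all probe sets, 0.659% were called lower and 49.98% had values below 0. The separation was seen in 17.1% of them, and a lower value at an unadjusted p under 0.05 in 7.92%. The 4 with the smallest p were Epsti1, an interferon response gene named for its epithelial-stromal induction, with a log2 difference of -1.37 ± 0.14 (SE), the immunoproteasome subunits Psmb8 (-1.30 ± 0.16) and Psmb9 (-1.64 ± 0.22), and the immunity-related GTPase Irgm (-1.93 ± 0.26). Their limma adjusted p ran from 0.0306 to 0.0457. None of the 6 calls held when any single PD array was left out. Without PD array 2 a different gene of the 26 passed, Lgals3bp, and none passed in limma without PD array 1 or 3. Calls over all probe sets also fell, from 82 to 28, 55 and 18 without PD arrays 1, 2 and 3. At an unadjusted p under 0.05 in limma were 20 to 21 of the 26 over these fits, and 924 to 1534 of the 8797 probe sets. PD array 3 was the highest PD array in 20 of these 26 genes, against 26.3% of all probe sets. Of these, 12 also had PD array 2 as the lowest, an order that 13.8% of all probe sets had.

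Genes upstream of the effectors were also taken from lists, and no difference between lists was tested. Of 9 measured signalling genes and regulators none passed the test in limma, 2 had an unadjusted p under 0.05, and the median log2 difference was -0.19. The 2 were Irf9 and Irf1, both lower, as were 7.92% of all probe sets at that limma level. Of the 9, 5 lay below 0. In 4 of these, Irf9, Irf1, Ptpn6 and Jak2, both PD.SHR4 arrays lay below all PD arrays, a separation that 17.1% of all probe sets showed. Stat2, the remaining one, lay at -0.19 with overlapping arrays. The other 4 lay above 0, and of them only Jak1, at 0.26, had both PD.SHR4 arrays above all PD arrays. Irf9, the DNA-binding subunit that recognises the ISRE, had the smallest p, with levels of 8.09, 8.25 and 8.54 in PD and 7.60 and 7.55 in PD.SHR4, a difference of -0.72 ± 0.16 (SE; limma adjusted p = 0.128). Irf1, an interferon-induced transcription factor chosen after its value was seen, measured 6.63, 7.60 and 7.32 in PD and 6.11 and 6.18 in PD.SHR4, also without overlap, a difference of -1.04 ± 0.29 (SE; limma adjusted p = 0.189). Of 3 measured nucleic acid sensors and adaptors 0 passed in limma, and 0 had an unadjusted p under 0.05. Tlr3, a receptor for double-stranded RNA, came closest at -0.47 ± 0.25 (SE; limma adjusted p = 0.504). Of 15 listed interferons and receptors only 3 were measured, and again 0 passed in limma at either level. Ifnb1, the gene of interferon beta, lay between 1.76 and 2.04 on all 5 arrays, below the lower quartile of each, with a difference of 0.13 ± 0.13 (SE; limma adjusted p = 0.778).

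**Figure D5:**
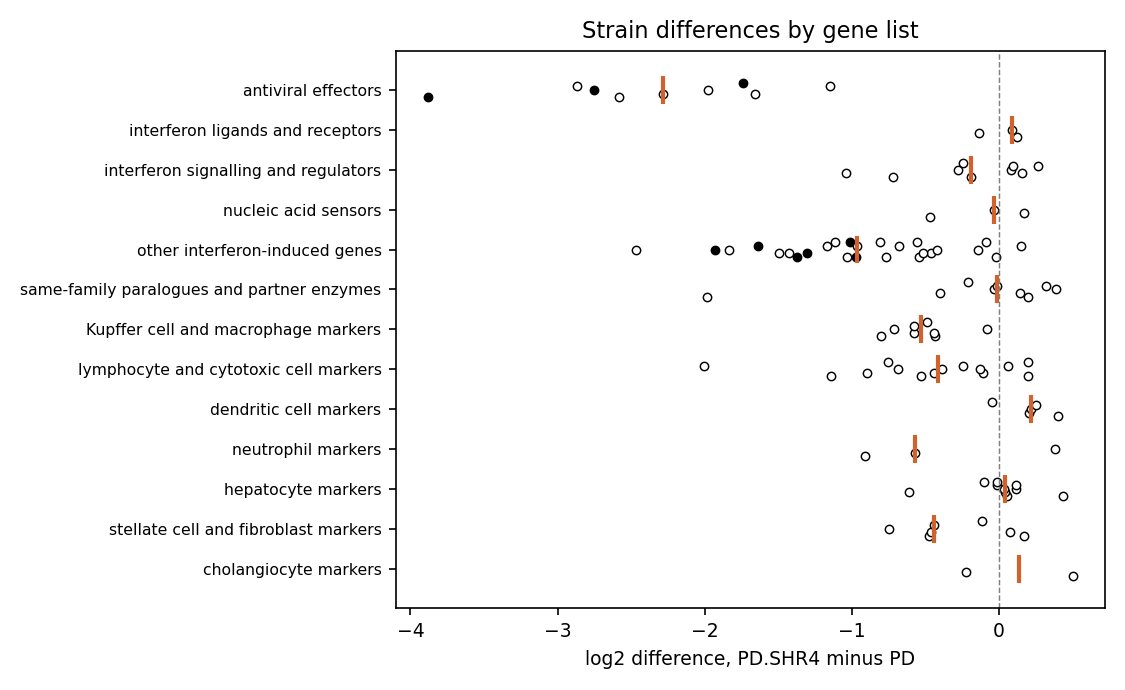
Log2 difference, PD.SHR4 minus PD, of each measured gene by list, with filled points at adjusted p under 0.05 and orange bars at list medians. The antiviral effectors have the lowest median, -2.28, followed by other interferon-induced genes at -0.97, and the filled points lie in these 2 lists.

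Markers of cell types that the tissue could hold are given beside the effectors. Over all 8797 probe sets, 49.98% had values below 0. An unadjusted p under 0.05 was found in 1211 of them in either direction, and in 7.92% with a lower value. All 8 measured Kupffer cell and macrophage markers had values below 0 (median -0.53), 0 passed in limma while 7 had an unadjusted p under 0.05, and their mean level was 8.75 to 8.93 over the PD arrays and 8.35 on both PD.SHR4 arrays. Of 14 lymphocyte and cytotoxic cell markers 11 were below 0 (median -0.42), 0 passed while 7 had an unadjusted p under 0.05, and the mean level was 4.63 to 4.78 in PD and 4.17 to 4.22 in PD.SHR4. For 5 dendritic cell markers the median was 0.22, with a mean level of 4.06 to 4.23 in PD and 4.22 to 4.44 in PD.SHR4. For 3 neutrophil markers the median was -0.57 and the mean level 5.08 to 5.46 in PD and 4.96 to 4.97 in PD.SHR4. The 7 stellate cell and fibroblast markers had a median of -0.44, with a mean level of 6.11 to 6.57 in PD and 6.003 to 6.03 in PD.SHR4. The median was 0.040 for 10 hepatocyte markers and 0.14 for 2 cholangiocyte markers. In these last 5 lists no gene passed in limma, with 0, 2, 2, 2 and 1 at an unadjusted p under 0.05. Endothelial markers were not analysed here. The part of cell composition in the effectors' difference was not tested.

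The gene profiles nearest to the effectors were found by distance. Each probe set's 5 array values were set relative to the middle of its strain means and compared with the median profile of the 9 effectors, which Ifit3 matched most closely among the 9, at a root mean square difference of 0.073 log2 units. The 6 nearest genes outside the group were Gzmb (0.16), Oas1i (0.17), Ifi47 (0.17), Prlr (0.23), Tor3a (0.28) and Irgm (0.29). Among the effectors, Oas1a (0.38), Mx2 (0.39), Oasl2 (0.46), Oas2 (0.61) and Ifit1 (0.87) were farther from the median profile than all 6. Besides Ifit3, the effectors Oas1b (0.18), Oasl (0.25) and Mx1 (0.27) were nearer than Irgm. Gzmb, the granzyme B of cytotoxic lymphocytes, measured 5.75, 5.43 and 6.85 in PD and 3.91 and 4.10 in PD.SHR4, so its PD array 3 was also the highest. Ifi47, an interferon-inducible GTPase, measured 8.35, 7.72 and 9.34 in PD and 6.09 and 5.92 in PD.SHR4. Prlr, the prolactin receptor gene, differed in that PD arrays 1 and 2 were close, at 6.57 and 6.63 beside 7.25 on array 3, with 4.73 and 4.69 in PD.SHR4. As the 6 were picked for this profile, their lower PD.SHR4 values and high PD array 3 follow from that choice and are no separate result. Of the 6, Prlr and Irgm fell (limma adjusted p = 0.0344 and 0.0457) and the other 4 did not pass. Over all probe sets 0.659% were called lower. The call of Prlr was lost on leaving out any single array other than PD array 3, and that of Irgm on leaving out any of the 5, at log2 differences of -2.23 to -1.89 and -2.18 to -1.69. The distance covers 5 arrays of 2 strains and says nothing of shared control.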

How the data were processed

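The deposited values are log2 levels from RMA in Affymetrix Expression Console (core-gene analysis), per the labels. Partek and RMA appear in the submitters' processing notes. Versions, annotation and build: not given in the sources used here. RMA normalises arrays by quantiles, which can remove a shift shared by all genes.

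Names came from GEO's platform annotation. Of 8797 probe sets, 7603 had 1 symbol, 409 several and 785 none, and 7584 gene IDs matched the RefSeq table of GRCr8, used for symbols and gene order. The brightest probe set stood for a gene with several. PD.SHR4 was compared with PD in R 4.3.3 with limma 3.58.1 (eBayes after lmFit, two-sided, without covariates). P-values were adjusted by Benjamini-Hochberg across all probe sets, at a threshold of 0.05. The fit was tested on simulated data. The number of arrays limits the precision.

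Named were all measured effectors, up to 4 genes per pathway list by smallest p among those past the threshold, or the 1 with the smallest p where none passed, and the 6 nearest profiles. Members and lists were chosen with earlier results of these data known. Alternatives tried: single arrays left out, a block for the replicate number, median centring, a second quantile normalisation, shrinkage with an intensity trend and robust fitting, dropping the dimmest 25% of probe sets, array weights, a limit of 1.5-fold and the mean of a gene's probe sets.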

Additional observations from a re-analysis of the deposited data

How the results depend on the processing

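All 9 effectors kept values below 0 in every alternative fit. As no gene's arrays overlapped between strains, the sign could not turn without single arrays, with the replicate block or with array weights. The shrinkage setting and dropping dim probe sets leave the differences themselves unchanged. Every effector was at least 2.21-fold lower and had a single probe set. The 1.5-fold limit and the mean of a gene's probe sets therefore could not change the effectors' results. The number called, 3, was 0 to 5 without single arrays, 2 after median centring or a second quantile normalisation, which lost Ifit1, and 3 with a 1.5-fold limit. It was 6 with trend and robust shrinkage, 6 without the dimmest 25% of probe sets, where fewer probe sets were tested, 8 with the replicate block and 9 with array weights, which gave PD array 3 a weight of 4.26 and PD array 2 one of 0.30. With the replicate block PD array 3 has no partner, so the differences equal those without it (Ifit1 -3.39 in both). Without PD array 3 and without the block, only Mx1 passed. Otherwise the cause of these changes in count was not tested. All probe sets called numbered 82, and 0 to 55 without single arrays, 163 with the replicate block, 151 with trend and robust shrinkage, 149 without the dimmest 25% and 819 with array weights. The replicate numbers were not taken as pairing: same-numbered arrays deviated together at r = 0.050 and 0.082, over 2 pairs. The effectors' median of -2.28 moved beyond the spread between arrays (0.52) only with array weights, to -2.81. The other interferon-induced genes called, 6, numbered 0 to 1 without single arrays and 21 with array weights. Oas1h, at -0.031, ranged from -0.17 to 0.12 without single arrays and was 0.023 after median centring. Low signal limits Oas1d, Oas1e, Oas1h, Oas1k and Ifnb1.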
